A study of Mus musculus with 20 samples.

Results

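Egr3, Nr4a2 and Jun are immediate early genes, a class whose transcription is switched on within minutes of a stimulus such as neuronal firing, without the need for new protein. Egr3 encodes a zinc finger transcription factor of the early growth response family, Nr4a2 (also called Nurr1) an orphan nuclear receptor known for its part in dopaminergic neurons and in memory, and Jun the c-Jun subunit of the AP-1 transcription factor. Their transcripts are short-lived, and N6-methyladenosine (m6A), an adenosine modification of messenger RNA that is enriched near stop codons and in the sequence after them, is known to favour the decay of many transcripts that carry it. Every entry of the deposited regional site lists that was assigned to one of these 3 genes was taken, which gave 37 sites of the 25978 listed in any region, and 3 of 3731 genes. They comprised 30 of 17878 cortical, 24 of 13461 hippocampal and 3 of 11391 cerebellar sites.

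The study mapped m6A in the mouse brain with APOBEC1-YTH, in which a YTH domain that binds m6A is joined to APOBEC1, an enzyme that deaminates cytidines, so that cytidines near an m6A become uridines. All mice carried a tamoxifen-inducible transgene, either APOBEC1-YTH or APOBEC1-YTHmut, the latter serving as the background for C-to-U edits, and all were injected with tamoxifen at 20 mg/kg once every 24 h over 5 days and sampled 7 days after the last injection. The groups were 4 APOBEC1-YTH libraries each from whole cortex, whole hippocampus and whole cerebellum, and 3 APOBEC1-YTHmut libraries from cortex, 2 from hippocampus and 3 from cerebellum. The sources used here do not give the promoter that drives the transgene or the age, strain and sex of the mice. A site is an edited cytidine, and its editing level is the value of the deposited list, read as the percent of edited reads. Which sites mark the same m6A is not known, so numbers of sites are not numbers of m6A. Each region has 1 list with 1 level per site, so levels have no replicate error, the read depth is unknown and no test between regions was possible. An SD given below is the spread over the sites of a gene. The lists hold no RNA abundance. A gene or site missing from a list is therefore not shown to be unmethylated, and in bulk tissue fewer cells of a type and less RNA per cell cannot be told apart.

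Marker genes matched the labelled tissues only in part, as far as edited sites can show. Percentages of markers are of those with a site in any region. Over all such genes they were 84.8% for cortex, 68.3% for hippocampus and 59.7% for cerebellum. Of the 13 cerebellar markers 7 were listed in cerebellum (100%), 4 in cortex (57.1%) and 2 in hippocampus (28.6%). Pcp2, Gabra6, Cbln1 and Cbln3 were in none of the lists. Sites of the cerebellar markers numbered 206 in cerebellum, 11 in cortex and 4 in hippocampus. Of the 8 hippocampal markers 5 were listed in hippocampus (100%), 2 in cortex (40%) and 1 in cerebellum (20%), with 65, 31 and 1 sites. Of the 10 cortical markers 8 were listed in cortex (100%), 4 in hippocampus (50%) and 2 in cerebellum (25%), with 51, 39 and 26 sites. Among these, Camk2a had 25 cortical, 26 hippocampal and 25 cerebellar sites, and Neurod6 and Slc17a7 had more sites in hippocampus than in cortex.

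The lists gave Egr3 18 cortical, 10 hippocampal and 0 cerebellar sites. Nr4a2 had 7, 10 and 0 in these regions, and Jun had 5, 4 and 3. With a level of at least 2% required, cortex and hippocampus had 10 and 8 sites of Egr3, 7 and 7 of Nr4a2, and 1 and 3 of Jun, so the order of these regions held for Egr3 alone. The number in cortex was reached or passed by 6.96% of cortical genes for Egr3, by 24.3% for Nr4a2 and by 34.0% for Jun. In hippocampus these shares were 14.8% for Egr3 and for Nr4a2 and 38.0% for Jun. Egr3 was thus among the cortical genes with the larger numbers of sites, while Jun lay in the upper part of the range in cortex and hippocampus. Numbers were not divided by gene length. Over all genes listed in any region, 84.8% were listed in cortex, 68.3% in hippocampus and 59.7% in cerebellum. Of the 220 genes with at least 18 cortical sites, 32 (14.5%) had no cerebellar site, as Egr3 had none. Of the 377 genes with at least 10 hippocampal sites, 52 (13.8%) had no cerebellar site, as Nr4a2 had none. A surplus of 3 or more hippocampal over cortical sites, as in Nr4a2, was seen in 81 of the 770 genes with at least 7 cortical sites (10.5%).

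**Figure D1:**
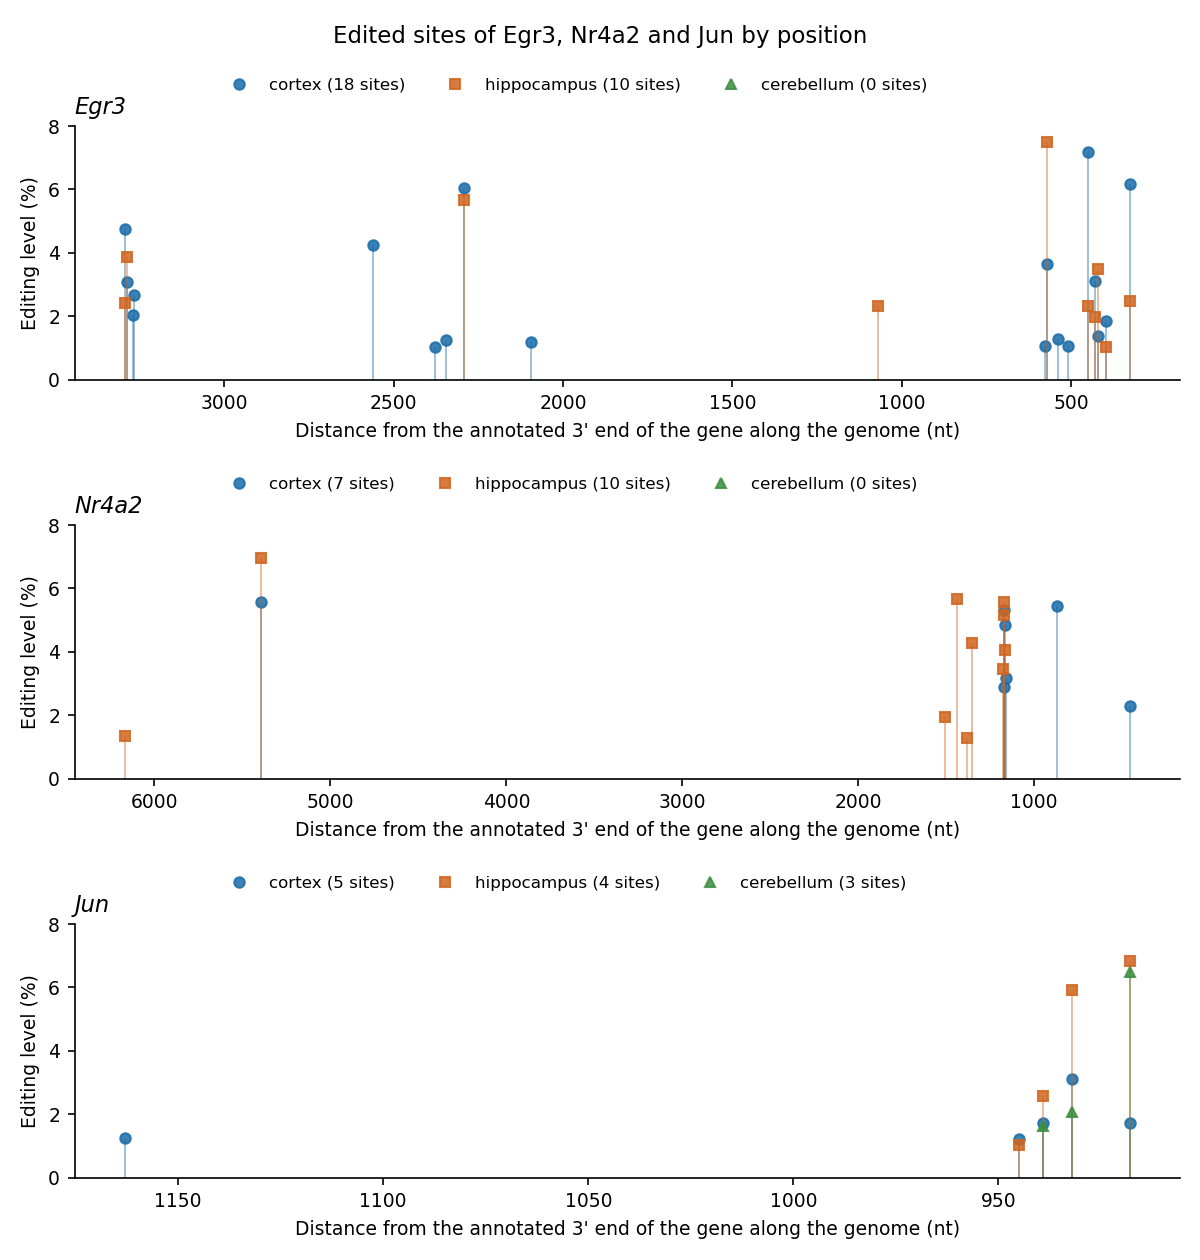
Editing level in percent of every listed site of Egr3, Nr4a2 and Jun against its distance in nucleotides from the annotated 3′ end of the gene, with cortex as circles, hippocampus as squares and cerebellum as triangles. Distances run along the genome. Egr3 sites form separate stretches, most Nr4a2 sites lie within 1504 nt of the 3′ end, and only Jun has cerebellar sites. Each panel has its own horizontal scale.

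Egr3 lies on chromosome 14 of mm10, from 70077317 to 70082613 on the plus strand, a span of 5297 nt in the RefSeq annotation of GRCm38.p6. Its 19 sites fell into 3 stretches when neighbours up to 500 nt apart were joined, a limit chosen after the positions had been seen. No other annotated gene span covered any site of the 3 genes. Exon and UTR annotation and the genome sequence around the sites were not used here. Distances from the 3′ end therefore run along the genome, with any intron counted, and are not distances along the transcript.

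The first Egr3 stretch held 4 sites within 28 nt, from position 70079320 to 70079347, of which cortex listed all 4 and hippocampus 2. The site at 70079320 had a level of 4.74% in cortex and 2.42% in hippocampus, and the one at 70079326 had 3.09% and 3.87%. The sites at 70079344 (2.05%) and 70079347 (2.66%) were listed in cortex and not in hippocampus. The direction between the regions thus differed at neighbouring cytidines 6 nt apart.

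The second Egr3 stretch ran from 70080051 to 70080519 and held 5 cortical sites, of which hippocampus listed 1. That shared site, at 70080321, had the highest level of the stretch in both regions, 6.04% in cortex and 5.68% in hippocampus. The cortical site at 70080051 had 4.25%. The remaining sites at 70080235, 70080267 and 70080519 had 1.05%, 1.24% and 1.18%, just above the 1% below which the lists hold no value.

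The third Egr3 stretch, from 70081543 to 70082285, ended 328 nt before the annotated 3′ end and held 9 cortical and 7 hippocampal sites. The highest cortical level of the gene was here, 7.18% at 70082162, where hippocampus had 2.34%. The highest hippocampal level of the gene was at 70082041, 7.5%, where cortex had 3.64%. The top site of one region was therefore not the top site of the other, although both were listed in each.

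At the other shared sites of this stretch the levels in cortex and hippocampus were 3.11% and 1.99% at 70082182, 1.38% and 3.5% at 70082192, 1.87% and 1.05% at 70082217, and 6.17% and 2.5% at 70082285. Cortex alone listed 70082035 (1.08%), 70082074 (1.29%) and 70082103 (1.08%). Hippocampus alone listed 70081543 (2.33%), which was the only one of its Egr3 sites missing from cortex.

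Cortex and hippocampus shared 9 Egr3 sites, which were 9 of 10 hippocampal sites against 69.7% over all hippocampal sites, and 9 of 18 cortical sites against 52.5% over all cortical sites. The 9 cortical sites not listed in hippocampus had a median level of 1.24%, and 6 of them were under 2%, against 35.9% over all genes. The 9 shared ones had a cortical median of 3.64%, and 2 were under 2%, against 22.2% over all genes. Over all genes the same order held, with medians of 2.49% for cortical sites not listed in hippocampus and 3.38% for shared ones, and 40.6% of cortical sites under 2% were listed in hippocampus against 57.2% of those at 2% or more. The larger cortical number of Egr3 sites thus consisted mostly of low-level sites, and the part of read depth in this was not tested.

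At the 9 shared Egr3 sites the mean level was 4.14% ± 2.02 (SD over sites) in cortex and 3.43% ± 2.02 in hippocampus. Hippocampus was higher at 3 sites and cortex at 6, and hippocampus was higher at 48.4% of all 9379 sites shared by these regions. The log2 ratio of hippocampal to cortical level had a median of -0.64 for Egr3, with a range from -1.62 to 1.34, and -0.02 over all shared sites. The levels were at least 2-fold apart at 4 of the 9 sites, against 15.5% of all shared sites. Of these 4, 2 were higher in cortex (70082162 and 70082285) and 2 in hippocampus (70082041 and 70082192), all within the last stretch. Over all its sites Egr3 averaged 2.95% ± 1.99 in cortex (n = 18 sites) and 3.32% ± 1.94 in hippocampus (n = 10 sites), so the sign of the difference depended on whether unshared sites were counted. Both differences were smaller than the spread of levels over sites, which leaves out the pairing of shared sites. The log2 ratios at the 9 shared sites had an SD of 1.03.

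**Figure D2:**
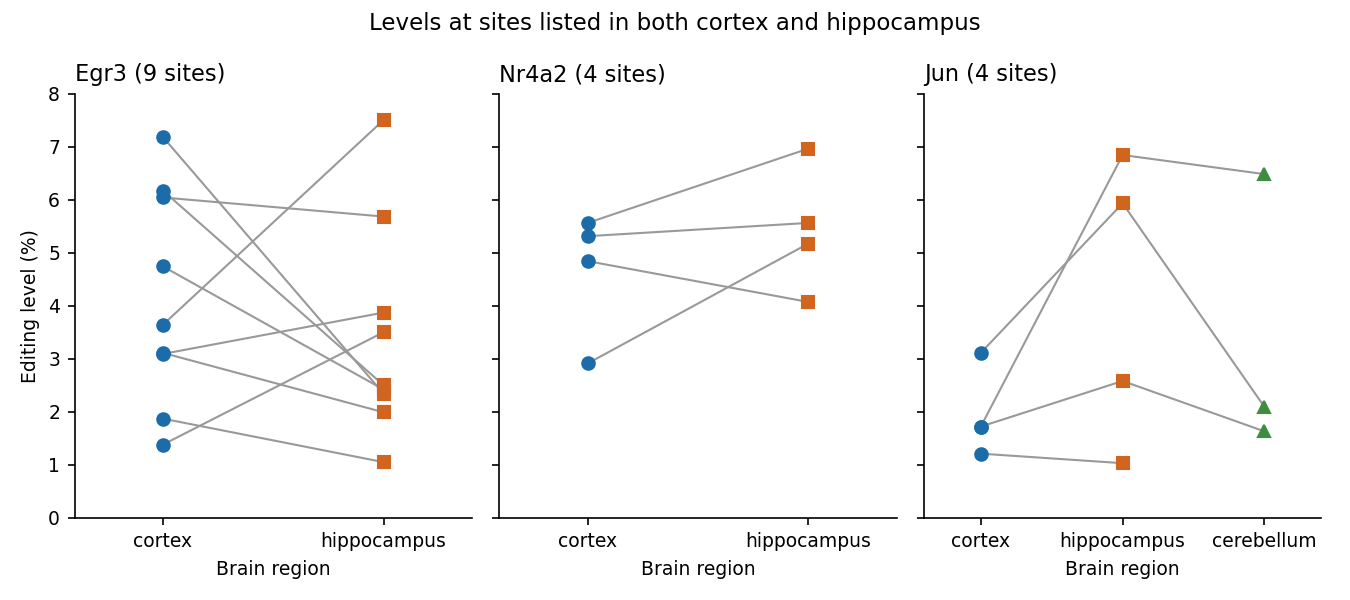
Editing level in percent at the sites listed in both cortex and hippocampus, with 1 line per site, for Egr3 (9 sites), Nr4a2 (4 sites) and Jun (4 sites, with cerebellum where listed). Lines of Egr3 cross between the regions, while 3 of 4 lines go up from cortex to hippocampus in Nr4a2 and in Jun.

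Nr4a2 lies on chromosome 2, from 57106830 to 57124003 on the minus strand, and had 13 sites in all. Of these, 11 were within 1504 nt of the annotated 3′ end, a limit set by the farthest of them, and 49.7% of all sites inside their gene's span lay as near. The other 2 lay 5394 and 6168 nt from it along the genome. The site at 57112224 had a level of 5.56% in cortex and 6.96% in hippocampus, the highest of the gene in each region. The one at 57112998 was listed in hippocampus with 1.36%.

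The densest part of Nr4a2 was a row of 5 cytidines spaced exactly 4 nt apart, from 57107992 to 57108008. In transcript direction, the first, 57108008, was listed in hippocampus with 3.45%. The next, 57108004, had 2.91% in cortex and 5.17% in hippocampus, 57108000 had 5.31% and 5.56%, and 57107996 had 4.84% and 4.07%. The last, 57107992, was listed in cortex with 3.17%. Cortex and hippocampus thus each listed 4 of the 5 positions, offset by 1, with levels from 2.91 to 5.31% in cortex and from 3.45 to 5.56% in hippocampus.

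Among the sites within 1504 nt of the 3′ end, those outside this row were each listed in 1 region. Upstream of it, hippocampus alone listed 57108334 (1.95%), 57108269 (5.66%), 57108213 (1.3%) and 57108186 (4.29%). Downstream of it, cortex alone listed 57107698 (5.45%) and 57107288 (2.3%). Some of these one-region sites had levels among the higher of the gene, such as 5.66% in hippocampus and 5.45% in cortex. Over the whole gene, the row included, 3 of the 6 hippocampal sites not listed in cortex were under 2%, against 50.5% over all genes. Of the 3 cortical sites not listed in hippocampus none was, against 35.9% over all genes.

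Cortex and hippocampus shared 4 Nr4a2 sites, 4 of 10 hippocampal sites (against 69.7% over all genes) and 4 of 7 cortical sites (against 52.5%). With a cortical site anywhere within 10 nt, 5 of the 10 hippocampal sites had a partner. At the shared sites the mean level was 4.66% ± 1.20 (SD over sites) in cortex and 5.44% ± 1.19 in hippocampus. Hippocampus was higher at 3 of 4, against 48.4% of all shared sites. The median log2 ratio was 0.20, with a range from -0.25 to 0.83. Levels were at least 2-fold apart at 0 of 4, against 15.5% of all shared sites. Over all its sites Nr4a2 averaged 4.22% ± 1.38 in cortex (n = 7 sites) and 3.98% ± 1.95 in hippocampus (n = 10 sites). The mean levels of the regions differed by less than the spread of levels over sites, which leaves out the pairing of shared sites. The log2 ratios at the 4 shared sites had an SD of 0.46. The hippocampal surplus of Nr4a2 in the number of sites was lost at a limit of 2%, which left 7 sites in cortex and 7 in hippocampus. A limit of 5% left 3 and 4, and merging within 10 nt left 4 and 7.

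Jun lies on chromosome 4, from 95049036 to 95052222 on the minus strand, and had 5 sites, all between 918 and 1163 nt from its annotated 3′ end. Of the 5 sites, 4 lay within 28 nt, from 95049954 to 95049981. The fifth, at 95050199, was listed in cortex with 1.24%. The neighbouring sites 95049954, 95049968 and 95049975, were listed in every region, and cerebellum listed no other site of the gene.

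The site nearest to the 3′ end, 95049954, had levels of 1.72% in cortex, 6.84% in hippocampus and 6.48% in cerebellum. It was the highest Jun site in hippocampus and in cerebellum, and in cortex it was level with 95049975. At 95049968 the levels were 3.11%, 5.93% and 2.09%, so here hippocampus stood above both other regions. At 95049975 they were 1.72%, 2.58% and 1.63%. The site at 95049981 had 1.21% in cortex and 1.03% in hippocampus.

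The cerebellar level was thus near the hippocampal one at 95049954 and near the cortical one at 95049975, and at 95049968 it was below both. The order of the levels was hippocampus, cerebellum, cortex at the first of these positions and hippocampus, cortex, cerebellum at the other two. As there is 1 value per region, whether neighbouring regions in these orders differ beyond the spread between animals could not be tested.

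Every cerebellar Jun site was also a cortical and a hippocampal site (3 of 3, against 58.2% and 49.9% of all cerebellar sites). They were 3 of the 5 cortical and 3 of the 4 hippocampal Jun sites, where 37.1% of all cortical and 42.3% of all hippocampal sites were listed in cerebellum. Of 1036 genes with at least 3 cerebellar sites, 72 (6.95%) had all of them listed in both other regions, as Jun did. That base includes genes with many more cerebellar sites, every one of which had to be shared. Genes with exactly 3 were not counted apart, so the share does not tell how common this was among them. Hippocampus was higher than cortex at 3 of 4 shared Jun sites, against 48.4% of all sites shared by these regions. The median log2 ratio was 0.76, with a range from -0.23 to 1.99 and an SD of 0.92. All 4 lay between 95049954 and 95049981, and whether they mark the same m6A is not known. The 1 site at least 2-fold higher in hippocampus was 95049954, and 7.37% of all shared sites were at least 2-fold higher there. Cerebellum was higher than cortex at 1 of 3 shared sites, against 52.6% of all 6627 sites shared by these regions, with a median log2 ratio of -0.08, and 1 of the 3 was at least 2-fold apart, against 27.1%. It was higher than hippocampus at 0 of 3, against 51.9% of all 5688, with a median log2 ratio of -0.66, and again 1 of 3 was at least 2-fold apart, against 26.5%. Over all its sites Jun averaged 1.8% ± 0.77 in cortex (SD over 5 sites), 4.10% ± 2.74 in hippocampus (4 sites) and 3.4% ± 2.68 in cerebellum (3 sites). The means of cortex and hippocampus differed by more than the cortical SD and by less than the hippocampal one. The low cortical mean stood near the bottom of the cortical genes, of which 90.2% had a mean as high or higher, against 37.0% of genes for the hippocampal mean and 60.9% for the cerebellar one.

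**Figure D3:**
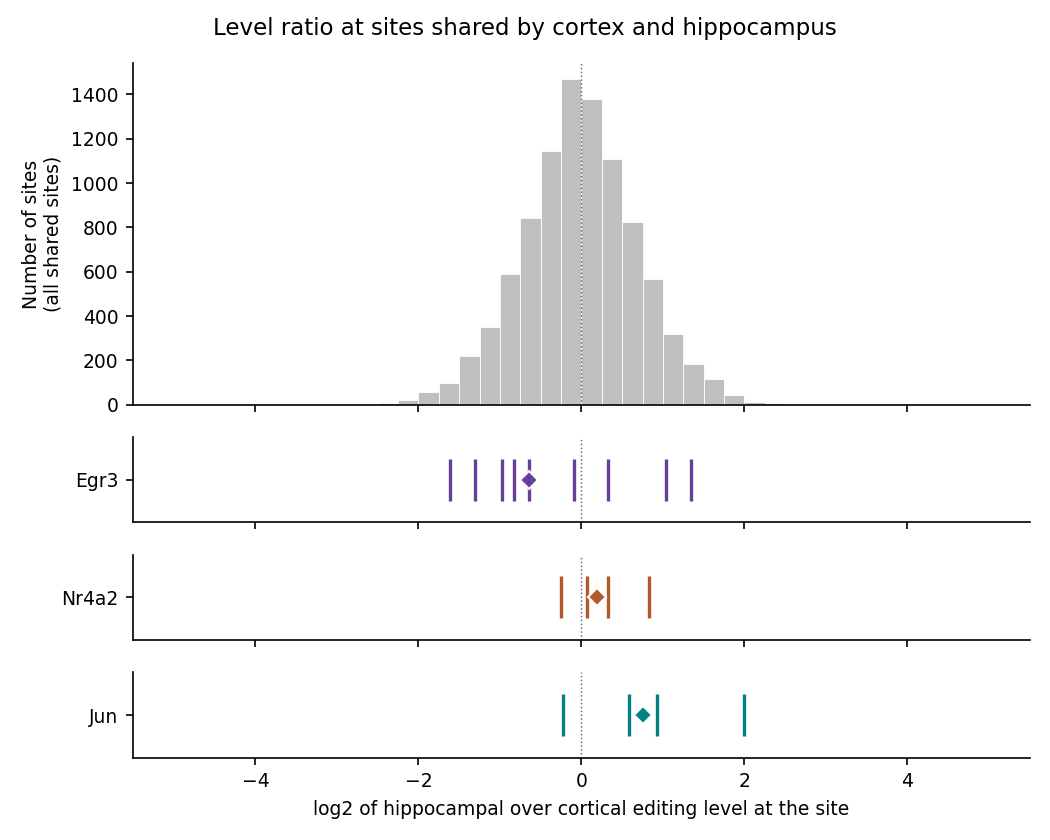
Grey bars count all 9379 sites shared by cortex and hippocampus by the log2 ratio of the hippocampal to the cortical level, in bins 0.25 wide. Ticks below are single sites of Egr3, Nr4a2 and Jun and diamonds their medians (-0.64, 0.20 and 0.76). Egr3 ticks lie on both sides of 0, and 3 of 4 ticks of Nr4a2 and of Jun lie above it.

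All levels of the 3 genes were below 10%. Of 793 genes with at least 10 sites in any region, a base that holds Egr3 and Nr4a2 but not Jun, 330 (41.6%) had no level of 10% or more. The top Egr3 level was equalled or passed by the top site of 35.0% of genes in cortex and 31.3% in hippocampus. For Nr4a2 these shares were 47.5% and 35.0%. For Jun they were 75.8% in cortex, 35.5% in hippocampus and 45.1% in cerebellum. These top levels were ranked over genes with any number of sites, and a gene with more sites has more chances of a high one. The mean cortical level of Egr3 was equalled or passed by 62.1% of cortical genes. In these terms Egr3 ranked higher by its number of cortical sites than by their levels. That number was ranked with all 18 listed sites, of which 10 had a level of at least 2%. Its rank at that limit was not computed.

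Of the other immediate early genes, Homer1 had the most sites, more than Nr4a2 and Jun in cortex. The list of 45 such genes was written with earlier results of these data known, and 13 of them had a site in any region. Cortex listed 11 of the 13, hippocampus 7 and cerebellum 2. With Egr3, Nr4a2 and Jun left out, the other 10 comprised 8 in cortex, 4 in hippocampus and 1 in cerebellum, beside 84.8%, 68.3% and 59.7% of all listed genes. The 3 genes held 30 of the 52 cortical sites of the list, 24 of the 30 hippocampal and 3 of the 4 cerebellar ones. Homer1, whose short activity-induced form acts at glutamate receptor scaffolds, had 9 cortical sites with a top level of 6.13% and 2 hippocampal ones. As the lists assign sites to genes, whether those of Homer1 lie on that form is not known. Nptx2, a secreted synaptic pentraxin, had 4 and the phosphatase gene Dusp1 3, all in cortex. Arc, which encodes an activity-regulated synaptic protein, had 1 site, in hippocampus, at 1.16%. Mcl1, an anti-apoptotic BCL2 family gene, had 1 site, in cerebellum, at 4.48%. The remaining ones with sites, Egr1, Egr4, Ier5, Jund and Rgs2, had 1 or 2 per region in which they were listed, and Fos, Fosb, Junb, Npas4, Nr4a1, Nr4a3 and Bdnf were among the 32 in no list.

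**Figure D4:**
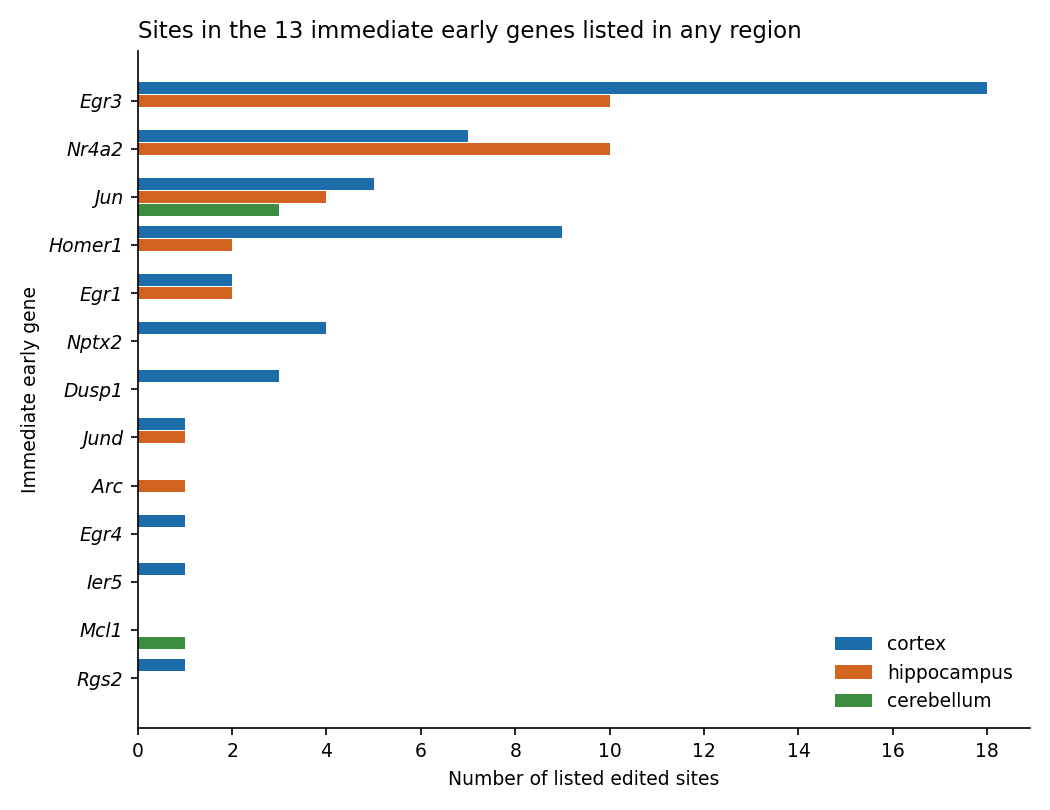
Number of listed edited sites in cortex, hippocampus and cerebellum for the 13 immediate early genes with a site in any region. Egr3 with 18 cortical sites and Nr4a2 with 10 hippocampal sites have the longest bars, tied in hippocampus by Egr3, and cerebellar bars are present for Jun (3) and Mcl1 (1).

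Relatives and partners of the 3 genes, in the families given here, had at most 2 listed sites per region. The share of all annotated genes with a site was not computed. Whether these families were listed less often than other genes was therefore not tested. Of the EGR family and its NAB co-repressors, 4 of 6 genes had a site: beside Egr3 these were Egr1 (2 sites in cortex and 2 in hippocampus, none above 2.92%), Egr4 (1 cortical site at 3.57%) and Nab1 (1 cerebellar site at 6.12%). Of the NR4A family and the RXR genes, whose products pair with NR4A2, Nr4a2 was the only 1 of 6 in any list. Of 16 AP-1 subunit genes, 4 were listed. Jund had 1 site in cortex (3.55%) and 1 in hippocampus (2.58%), the ATF family gene Atf2 had 1 in cortex (2.63%), and Jdp2, which encodes a Jun dimerization protein, had 1 in cortex at 10.1%. Egr3 held 18 of the 21 cortical sites of its group and Jun 5 of the 8 cortical sites of the AP-1 genes.

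The JNK pathway, whose kinases phosphorylate c-Jun, was listed in every region. Of 14 genes, 7 had a site in any region, and cortex listed 100% of these, hippocampus 85.7% and cerebellum 85.7%, beside 84.8%, 68.3% and 59.7% of all listed genes. Map3k10, a mixed lineage kinase, had 22, 22 and 6 sites in cortex, hippocampus and cerebellum, Map2k4, which activates JNK, had 16, 22 and 19, and the JNK2 gene Mapk9 had 9, 4 and 6. The JNK3 gene Mapk10 had 6, 2 and 2, with top levels of 54.2%, 41.4% and 46.6%. Of 18 factors upstream of activity-dependent transcription, 10 were listed in cortex, 9 in hippocampus and 4 in cerebellum, which were 90.9%, 81.8% and 36.4% of the 11 with a site in any region. The ETS factor gene Elk1 had 8, 8 and 0 sites, with top levels of 8.91% in cortex and 13.9% in hippocampus, Mef2a had 7, 11 and 8, and the CREB coactivator gene Crtc1 had 6, 5 and 0. An absence from cerebellum among genes with several forebrain sites was therefore also seen in Elk1 and Crtc1.

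Genes with the most similar numbers of sites over the 3 regions were found by the Euclidean distance of log2(number + 1). For Egr3 they were Plcb1 (19, 10 and 0 sites in cortex, hippocampus and cerebellum), Map9 (17, 9 and 0), Pip4k2b (16, 10 and 0), Lancl1 (15, 9 and 0) and Ak5 (17, 13 and 0), at distances from 0.07 to 0.36. For Nr4a2 they were Bhlhe22 (7, 11 and 0), Klhl2 (8, 10 and 0), Ptk2b (6, 10 and 0), Lgi1 (6, 9 and 0) and Shisa7 (7, 12 and 0), at 0.13 to 0.24. For Jun, Cend1, Poldip2, Ufm1 and Cbx7 had the same 5, 4 and 3 sites, and Gnb5 (6, 4 and 3) was the nearest by mean level of the 8 genes at a distance of 0.22.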

How the data were processed

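Poly(A) RNA of 20 libraries was sequenced from 900 ng total RNA with a directional kit, per the labels' protocols. The submitters' processing notes name STAR 2.7.5 and mm10. The site caller, its thresholds and the way libraries were combined were not given in the sources used here. The authors deposited 1 list per region, whose value column holds a fraction, printed here as percent. Reading it as the edited share of reads in the APOBEC1-YTH libraries is an assumption. Positions are 1-based. Depth is unknown and precision could not be computed.

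Sites were shared when chromosome, position and strand were identical. Gene spans came from the RefSeq table of GRCm38.p6, the assembly of mm10, in which all 136 entries of the gene lists, some of them repeated between lists, were found. Named genes were the 3 genes, listed genes of the pathway lists, and for each of the 3 the 5 genes nearest in numbers of sites, with ties broken by mean level and then symbol. Members and lists were chosen with earlier results of these data known. Sharing and distance functions were tested on simulated data. Alternatives were level limits of 2% and 5%, merging or sharing within 10 nt, scaling, medians, shared sites and at least 2 sites per gene. Python 3.11.15, numpy 2.4.6, pandas 2.3.3 and matplotlib 3.10.9 were used.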

Additional observations from a re-analysis of the deposited data

How the results depend on the processing

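With 1 list per region, no result without a library can be given, and no paired analysis was possible because the lists hold no value per animal, although the 4 APOBEC1-YTH animal numbers recur in every region. Values without a test were compared with the SD over a gene's sites, which is not replicate error. A level limit of 2% left 10 cortical and 8 hippocampal sites of Egr3, 7 and 7 of Nr4a2, 1 and 3 of Jun, and 2 cerebellar sites of Jun, so that the surplus of Nr4a2 in hippocampus was lost and the order of cortex and hippocampus turned for Jun. A limit of 5% left 3 cortical and 2 hippocampal sites of Egr3, 3 and 4 of Nr4a2, 0 and 2 of Jun, and 1 cerebellar site of Jun. Merging within 10 nt left 14 cortical and 8 hippocampal sites of Egr3, 4 and 7 of Nr4a2, and 3 and 2 of Jun. The surplus of Nr4a2 in hippocampus was thus lost at 2% but not at 5% or on merging. With 2 sites required, 7 immediate early genes were listed in cortex and 1 in cerebellum. No median ratio changed sign under scaling, which shifted log2 ratios by 0.02, or with 2% required in both regions. The mean levels moved by less than that SD, and the numbers shared within 10 nt by less than 1.5 times. Egr3 and Nr4a2 had 0 cerebellar sites under every limit and merging. These limits can only remove sites, and the unknown depth limits which sites were listed.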

Other observations

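The row of Nr4a2 sites spaced 4 nt apart prompted a count of such rows, chosen after the values had been seen. Rows of at least 4 sites, each exactly 4 nt from the next, occurred 20 times in the lists, in 14 genes: 10 rows in cortex, 9 in hippocampus and 1 in cerebellum. Dusp3, which encodes a dual-specificity phosphatase, had the longest, with 6 sites in hippocampus at 2.94 to 8.18% and 5 in cortex at 3.45 to 6.47%. Zbtb18 had rows of 5 in both cortex and hippocampus at the same positions. Pde1a, a calcium-dependent phosphodiesterase gene, had rows of 4 in both regions, with levels up to 5.49% in cortex and 8.82% in hippocampus, and the cerebellar row was in Map1b. A distance of 4 nt was the most frequent of the distances up to 10 nt between neighbouring sites of a gene, at 2.50% of 14715 distances in cortex, 2.51% of 10914 in hippocampus and 2.29% of 9163 in cerebellum.

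No list held 2 sites less than 3 nt apart on the same strand: 0 of 17838 distances in cortex, 0 of 13421 in hippocampus and 0 of 11351 in cerebellum were 1 or 2 nt. Numbers of sites per gene, those of Egr3, Nr4a2 and Jun included, therefore contain no directly adjacent cytidines.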
